A study of Mus musculus with 8 samples.

Results

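The genes described here are those of acetylcholine handling that the array measures in sympathetic tumors: Chat, Slc18a3, Slc5a7, Ache and Bche for synthesis, transport and breakdown of the transmitter, and Chrna3, Chrna5, Chrna7, Chrnb2 and Chrnb4 for subunits of its nicotinic receptors. They were chosen by name, with every probe set that the platform annotation gives to 1 of these genes alone. This gave 10 of 18194 genes and 19 of 34958 single-gene probe sets. All 10 genes lay above log2 5 in at least 2 tumors and entered the test with 16254 genes in all.

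RNA of 8 untreated neuroblastomas of LSL-MYCN;Dbh-iCre mice was measured on Affymetrix mouse whole-genome arrays, 1 array per tumor. Tumors 1 to 6 grew in the adrenal and tumors 7 and 8 in the superior cervical ganglion, which belongs to the sympathetic chain and sits in the neck. All 8 carried the same alleles: human MYCN at ROSA26 under a CAG promoter behind a loxP-flanked stop, with IRES-luciferase, and a Cre recombinase driven by Dbh, so that the transgene starts in cells that have switched on Dbh. Age, sex and strain of each mouse are not given in the sources used here, nor is it said that no mouse gave more than 1 tumor; all p-values rest on the spread from tumor to tumor. Arrays of normal adrenals and of other mouse models were not analysed here, and no level is set against normal tissue.

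Cholinergic neurons make acetylcholine from choline and acetyl-CoA with choline acetyltransferase, load it into vesicles with the vesicular transporter VAChT and take choline back up after cholinesterases have split the transmitter. Sympathetic neurons are mostly noradrenergic, but they receive their input through nicotinic receptors, chiefly of subunits encoded by Chrna3 and Chrnb4, with Chrna5 or Chrnb2 in some, and through separate receptors of Chrna7. A small share of sympathetic neurons, such as those of sweat glands, switches to acetylcholine during development.

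Values are deposited log2 levels, and a difference of 1 is a doubling. A probe set was called detected in a tumor when it lay above a limit set by sensory receptor genes. That limit was the 95th percentile of 84 probe sets that read taste, vomeronasal or olfactory receptors on the same array. Such genes were assumed to be silent outside sensory tissue, which was not tested. This limit was 6.71 to 7.21 in the 8 tumors, and 43.1% to 51.7% of probe sets passed it. Levels of different genes are not ordered here, since probe sets differ in brightness for the same amount of RNA.

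Tumors 7, 6, 8 and 1 stood apart in different ways. In tumor 7 all 9 measured genes of an 11-gene sympathetic neuroblast list were at their lowest, with Th at 10.36 against 13.62 to 14.25 elsewhere, Dbh at 9.07 against 12.53 to 13.54, and Slc18a2, the vesicular monoamine transporter, at 10.59 against 11.06 to 13.12. Of these 9 genes, 8 were detected in tumor 7 and 9 in each of the others. In tumor 6 all 8 hepatocyte genes were at their highest. Pip, 1 of 6 salivary gland genes, was 12.79 in tumor 8 against 4.61 to 5.04 elsewhere. RNA integrity, read as the difference of the 3′ from the 5′ Gapdh probe set, was poorest in tumor 1 (5.51, with 0.47 to 1.57 elsewhere). The site comparison is therefore also given with single tumors left out.

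Of the 10 cholinergic genes, Chrna3, Chrna7 and Chrnb2 were detected in all 8 tumors, against 61.2% of all genes tested. Slc5a7 and Chrna5 were detected in none, against 23.1%. Ache was detected in 7 tumors, Bche in 3, Chrnb4 in 2, and Chat and Slc18a3 in tumor 7 alone. The number detected per tumor was 3 in tumor 3, 4 in tumors 1 and 4, 5 in tumors 2, 5, 6 and 8, and 7 in tumor 7. The median SD over the 8 tumors was 0.664 for the 10 genes and 0.258 for all genes tested.

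**Figure D1:**
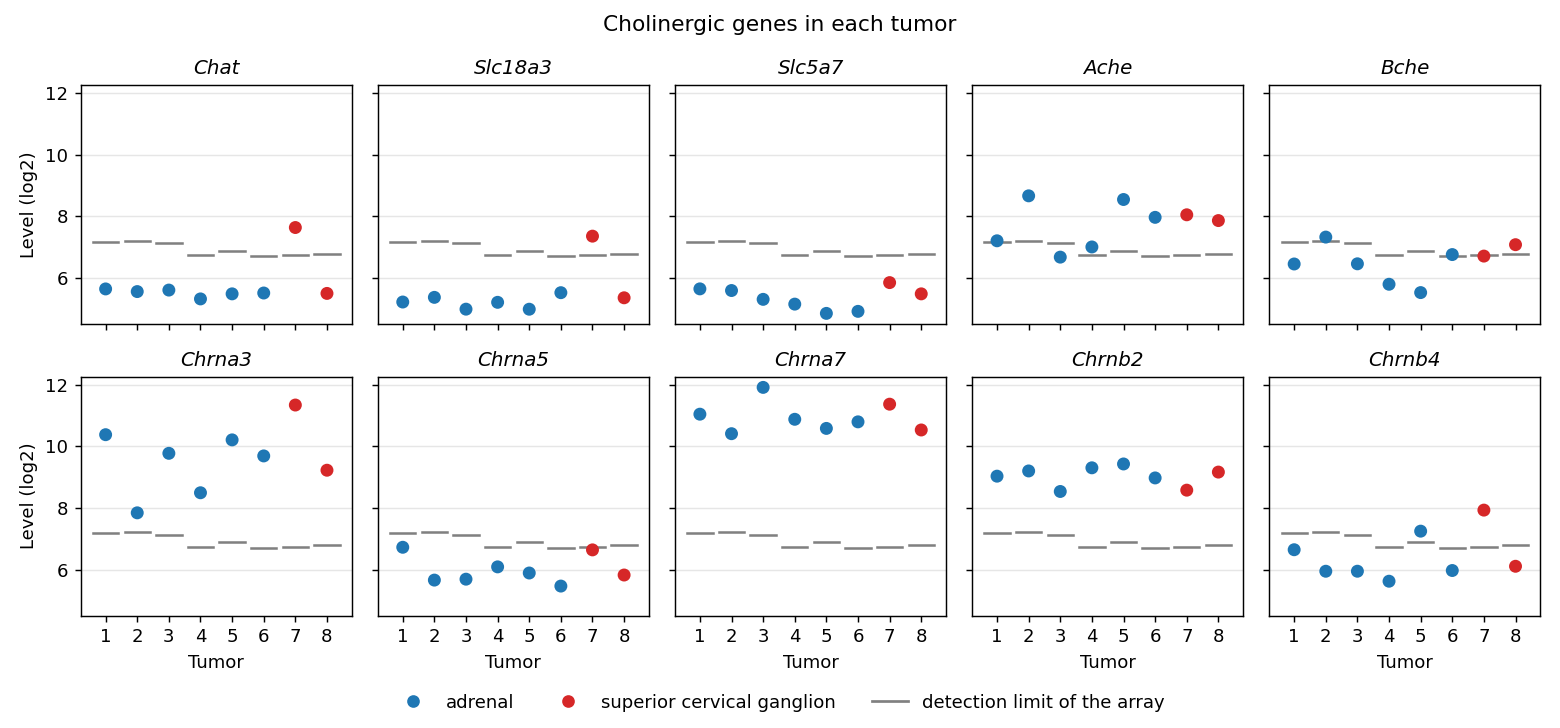
Log2 level of the 10 cholinergic genes, 1 panel each, against tumor number, with 1 point per array (blue adrenal, red superior cervical ganglion) and a grey line at the detection limit of that array (6.71 to 7.21). Chat (7.64) and Slc18a3 (7.36) pass the limit in tumor 7 alone, whereas Chrna3, Chrna7 and Chrnb2 lie above it in all 8 tumors.

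Chat encodes choline acetyltransferase, the enzyme that makes the transmitter and the defining gene of a cholinergic cell. Slc18a3 encodes VAChT and lies within the Chat gene on chromosome 14, an arrangement known as the cholinergic gene locus. The 250 bases before the annotated start of each are shown because both genes were highest in the same tumor. They are from RefSeq, build GRCm38.p6, at chr14:32465910-32466159 for Chat and chr14:32464851-32465100 for Slc18a3, both on the minus strand and written 5′ to 3′ along the gene. Capitals mark the E-box CACGTG, the E-box CAGCTG and the GC box GGGCGG, which reads CCGCCC on the other strand. The GATA-type motif AGATAA was searched too and is in neither window. Both strands were searched, no matches overlapped, and distances count from the first base of the match.
Chat: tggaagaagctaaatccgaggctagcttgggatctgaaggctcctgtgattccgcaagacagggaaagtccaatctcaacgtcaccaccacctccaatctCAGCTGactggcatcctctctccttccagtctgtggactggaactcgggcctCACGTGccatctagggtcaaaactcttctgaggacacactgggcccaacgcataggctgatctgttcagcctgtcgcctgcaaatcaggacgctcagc
Slc18a3: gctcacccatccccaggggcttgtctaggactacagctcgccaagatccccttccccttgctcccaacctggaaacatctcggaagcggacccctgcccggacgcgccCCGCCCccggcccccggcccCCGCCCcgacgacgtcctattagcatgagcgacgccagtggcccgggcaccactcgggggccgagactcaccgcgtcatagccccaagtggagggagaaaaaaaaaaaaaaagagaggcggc

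The Chat window held CACGTG 98 bases and CAGCTG 150 bases before the start. The Slc18a3 window held GGGCGG 142 and 122 bases before its start and neither E-box, so these searched letters were not shared between the 2 windows. Of 32851 promoter windows of the same length, 6.02% held CACGTG, 13.0% CAGCTG, 32.7% GGGCGG and 9.99% AGATAA. The GC content was 54.8% in the Chat window and 66.0% in that of Slc18a3, against a median of 52.4%. A match is a description of letters and not a site of binding.

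Chat had 1 probe set. Its level was 5.64, 5.56, 5.61, 5.32, 5.48 and 5.51 in tumors 1 to 6, 7.64 in tumor 7 and 5.50 in tumor 8. Slc18a3, also with 1 probe set, was 5.22, 5.37, 4.99, 5.21, 4.98 and 5.52 in tumors 1 to 6, 7.36 in tumor 7 and 5.36 in tumor 8. Both genes were below the detection limit in all tumors but tumor 7, where Chat lay 0.91 and Slc18a3 0.63 above it. The other ganglion tumor lay within the range of the adrenal tumors for both genes. As Slc18a3 lies inside Chat, whether RNA of one gene added to the signal of the other was not tested.

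On the deposited values the gap between tumor 7 and the next tumor was 1.99 for Chat and 1.84 for Slc18a3, but the next tumors were under the detection limit. Counted from the highest limit among the other arrays, 7.21, tumor 7 was at least 0.43 higher for Chat and at least 0.15 for Slc18a3. A gap of at least 1 in the deposited values, detected or not, set tumor 7 above all others for 333 of 16254 genes, or 2.05%, these 2 of the 10 cholinergic genes among them. Whether the pair follow each other outside tumor 7 cannot be read from values under the limit, and no correlation between them is given.

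Slc5a7 encodes the high-affinity choline transporter of cholinergic terminals, the third defining component. Its level was 4.85 to 5.65 in the adrenal tumors with a median of 5.23, 5.85 in tumor 7 and 5.48 in tumor 8. It was highest in tumor 7, by 0.20, and under the detection limit in all 8. Of the 3 genes that together define cholinergic transmission, tumor 7 thus had 2 above the limit and the other 7 tumors none.

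Ache encodes acetylcholinesterase, which splits the transmitter at synapses and is also made by cells that receive cholinergic input. Its level was 7.21, 8.67, 6.68, 7.01, 8.55 and 7.97 in tumors 1 to 6, 8.05 in tumor 7 and 7.86 in tumor 8. Both ganglion tumors lay within the adrenal range, which spanned 1.99, and tumor 3 was the only one under the limit. At a stricter limit, the 99th percentile of these receptors, 5 of 8 tumors had Ache detected.

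Bche encodes butyrylcholinesterase, a related enzyme with broader substrates that the liver and glial cells also make. Its brightest probe set read 6.45, 7.33, 6.46, 5.80, 5.53 and 6.76 in tumors 1 to 6, 6.71 in tumor 7 and 7.08 in tumor 8. It passed the limit in tumors 2, 6 and 8, and at the 99th percentile in none. The other 2 probe sets, at 4.22 to 4.40 and 3.66 to 3.95, were detected nowhere. In tumor 6, where all 8 hepatocyte genes were detected against 0 to 2 in the others, Bche was 6.76, detected, below tumors 2 and 8 and above the rest. The part of liver or glial RNA in the Bche levels was not tested.

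Chrna3 encodes the subunit present in most nicotinic receptors of autonomic ganglia. Its neighbours on chromosome 9 are Chrna5, with which it overlaps, and Chrnb4, and the 3 genes form the nicotinic cluster. The windows of Chrna3 and Chrnb4 are shown because these subunits pair in the ganglionic receptor. They are at chr9:55026563-55026812 and chr9:55048545-55048794, both minus strand, from the same build and marked in the same way.
Chrna3: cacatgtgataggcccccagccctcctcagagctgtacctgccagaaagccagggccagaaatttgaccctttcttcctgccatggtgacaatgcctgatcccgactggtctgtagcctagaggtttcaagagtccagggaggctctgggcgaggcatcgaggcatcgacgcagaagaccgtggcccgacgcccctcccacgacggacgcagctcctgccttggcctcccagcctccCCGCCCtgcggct
Chrnb4: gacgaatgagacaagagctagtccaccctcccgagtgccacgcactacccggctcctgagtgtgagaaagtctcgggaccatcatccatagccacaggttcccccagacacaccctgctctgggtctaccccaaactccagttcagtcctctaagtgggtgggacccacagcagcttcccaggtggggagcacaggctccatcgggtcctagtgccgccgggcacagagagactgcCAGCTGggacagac

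Chrna3 had GGGCGG 13 bases before the start and neither E-box. Chrnb4 had CAGCTG 14 bases before the start and no GC box, and neither held AGATAA, so no searched motif was shared. The Chrna3 window was 63.2% GC and that of Chrnb4 61.2%.

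The level of Chrna3 was 10.38, 7.84, 9.77, 8.49, 10.21 and 9.69 in tumors 1 to 6, 11.34 in tumor 7 and 9.23 in tumor 8. It was highest in tumor 7 and lowest in tumor 2, and tumor 8 lay inside the adrenal range. The range of 3.50 was 11.3-fold and the SD of 1.10 was at the 97.8th percentile of all genes tested. A second probe set of the gene, detected in all 8, lay between 7.80 (tumor 2) and 10.53 (tumor 7) and followed the first with r = 0.977 over the tumors (0.975 without tumor 7). A dimmer one, detected in 2, also peaked in tumor 7, at 7.63. All 3 probe sets of Chrna3 were thus highest in tumor 7. Whether RNA of the overlapping Chrna5 added to them was not tested.

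Chrnb4 encodes the beta subunit that joins Chrna3 in the ganglionic receptor. Its brighter probe set read 6.64, 5.94, 5.95, 5.62, 7.25 and 5.97 in tumors 1 to 6, 7.93 in tumor 7 and 6.11 in tumor 8. It passed the limit in tumors 5 and 7 only, and at the 99th percentile in tumor 7 only. The other probe set, at 5.66 to 6.01, was detected nowhere and followed the first with r = 0.235. The higher level in tumor 7 therefore rests on 1 of the 2 probe sets.

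Chrna5, an accessory subunit that modifies the ganglionic receptor, was detected in no tumor with either probe set. The brighter one was 5.46 to 6.72 in the adrenal tumors with a median of 5.79, 6.64 in tumor 7 and 5.82 in tumor 8. Tumors 1 and 7 were above the rest.

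Chrna7 encodes the subunit of homomeric, calcium-permeable receptors that bind alpha-bungarotoxin. Its brighter probe set read 11.05, 10.41, 11.92, 10.88, 10.58 and 10.80 in tumors 1 to 6, 11.37 in tumor 7 and 10.53 in tumor 8, detected in all. Tumor 3 was highest, and both ganglion tumors lay within the adrenal range. The other probe set, at 6.24 to 6.66, was detected in no tumor, and r between them was 0.438. Whether Chrna7 counts as detected thus depends on the probe set.

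Chrnb2 encodes the beta subunit of the main high-affinity receptors of the brain. The brightest of its probe sets read 9.03, 9.20, 8.54, 9.30, 9.43 and 8.98 in tumors 1 to 6, 8.58 in tumor 7 and 9.17 in tumor 8. Tumors 3 and 7 were lowest, and all values lay within 0.89 of each other. The other 2 probe sets, at 5.87 to 6.92 and 5.95 to 6.53, were detected nowhere and followed the first with r of 0.397 and -0.085. Chrnb2 overlaps Adar in the annotation, and whether RNA of Adar added to its signal was not tested.

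**Figure D2:**
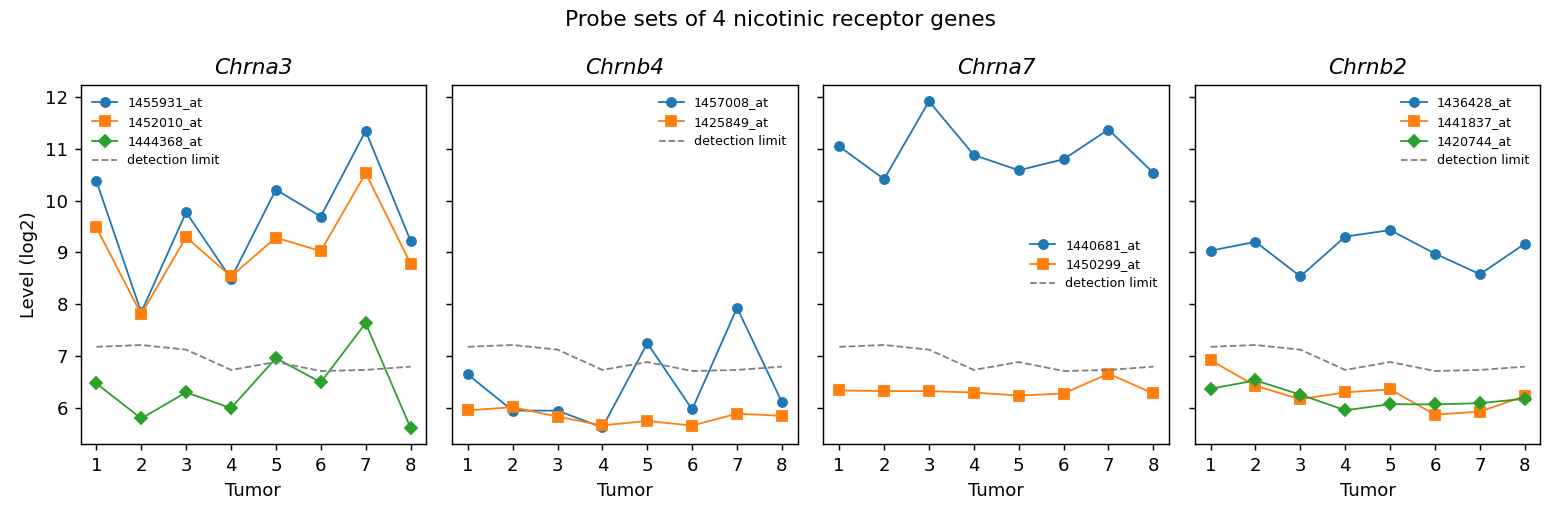
Log2 level of every single-gene probe set of Chrna3, Chrnb4, Chrna7 and Chrnb2 in the 8 tumors, 1 panel per gene, with the detection limit of each array as a dashed line; solid lines join the points of 1 probe set to guide the eye. The 3 Chrna3 probe sets all peak in tumor 7, whereas Chrna7 and Chrnb2 each have 1 probe set above the limit throughout and the others below it.

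Chrna3 and Chrnb4 were correlated over the 8 tumors with Pearson's r = 0.821 (exact permutation p = 0.0109, adjusted p = 0.246 over 45 pairs) and Spearman's rho = 0.857 (exact permutation p = 0.0107, adjusted p = 0.482). Without tumors 2 and 7, the farthest from the median of Chrna3, r was 0.781, and without tumor 7 alone it was 0.676. Chrnb4 was under the detection limit in 6 of the 8 tumors, so most points of this relation hold no measured Chrnb4 level. Chrna7 and Chrnb2 ran against each other with r = -0.861 (exact permutation p = 0.00635, adjusted p = 0.246) and rho = -0.69 (exact permutation p = 0.0694, adjusted p = 0.618). Without tumor 7 alone this r was -0.858, and without tumors 3 and 7 it was -0.406, so its size rested largely on tumor 3. Both genes were read here from their brightest probe sets, and their other probe sets were detected in no tumor. Of the 45 pairs among the 10 genes, 5 had an unadjusted Pearson p under 0.05 and 0 passed after adjustment by either coefficient.

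The labels allow 1 comparison, that of the ganglion with the adrenal tumors. In limma over all 8 tumors, 0 of the 10 cholinergic genes were called at an adjusted p under 0.05, with 0.0185% of all genes called (3 of 16254, all higher in the ganglion). These 3 were Clvs2 and the skeletal muscle genes Acta1 and Tnnt3. Clvs2 and Tnnt3 lay above log2 5 in tumors 7 and 8 alone, so they entered the test only through the ganglion tumors. Both were under the detection limit in every tumor. Unadjusted, Chat and Slc18a3 were the 2 of the 10 with p under 0.05, as were 761 genes in all. The median ganglion-minus-adrenal difference was 0.466 for the 10 genes and -0.0268 for all genes tested, and 9 of 10 were above 0 against 44.8% of all. Without tumor 7 the median was 0.0316 for the 10 genes and 0.0117 for all, and 5 of 10 were above 0 against 52.7% of all, so tumor 7 carried this shift. With every probe set fitted on its own, 0 of the 17 tested probe sets of these genes were called, with 0.0165% of all probe sets called.

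Chat was 1.05 higher in the ganglion tumors (SE 0.44, 95% confidence interval 0.05 to 2.04, limma adjusted p = 0.903) and Slc18a3 1.14 higher (SE 0.43, 0.17 to 2.11, adjusted p = 0.903). The mean of the 2 ganglion tumors describes neither of them, since tumor 7 was far above and tumor 8 within the adrenal range. Chrna3 differed by 0.89 (-0.83 to 2.60, adjusted p = 0.929) and Chrnb4 by 0.79 (-0.41 to 1.99, adjusted p = 0.903). For the other members the difference was -0.21 to 0.51, with limma adjusted p of 0.903 to 0.999. The exact permutation test of the site labels, two-sided over 28 assignments with a smallest possible p of 0.0357, gave 0.107 for Slc18a3, 0.179 for Chat and 0.179 to 1.0 for the other 8 genes.

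With tumor 8 left out, the lone ganglion tumor was taken to vary like the adrenal tumors. Chat and Slc18a3 were under the detection limit in all 6 adrenal tumors, so their size of change is a bound: in tumor 7 Chat was at least 0.67 (1.59-fold) and Slc18a3 at least 0.39 (1.31-fold) higher than the mean limit of the adrenal arrays. On the deposited values, background included, the fit gave 2.12 for Chat (95% confidence interval 1.70 to 2.53, limma adjusted p = 0.000737) and 2.14 for Slc18a3 (1.60 to 2.68, adjusted p = 0.00251). These intervals hold for the deposited values and not for the amount of RNA. These 2 of the 10 genes were called, against 5.87% of all genes (951 of 16210) and 2.86% called higher. Chrnb4 was 1.70 higher (0.47 to 2.94, adjusted p = 0.122) and Chrna3 1.94 higher (-0.08 to 3.96, adjusted p = 0.284), with adjusted p of 0.376 to 0.875 for the remaining 6.

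With tumor 7 left out, tumor 8 differed from the adrenal tumors by -0.41 to 0.69 over the 10 genes, and 0 were called (limma adjusted p = 1.0 for each), with 0.0493% of all genes called. Chat differed by -0.02 (-0.44 to 0.39) and Slc18a3 by 0.14 (-0.40 to 0.68). For Chat and Slc18a3 the difference between sites was thus that of tumor 7, in which the site and the tumor itself cannot be told apart. In bulk tumor RNA, fewer cells of a type and less RNA per cell cannot be told apart either.

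**Figure D3:**
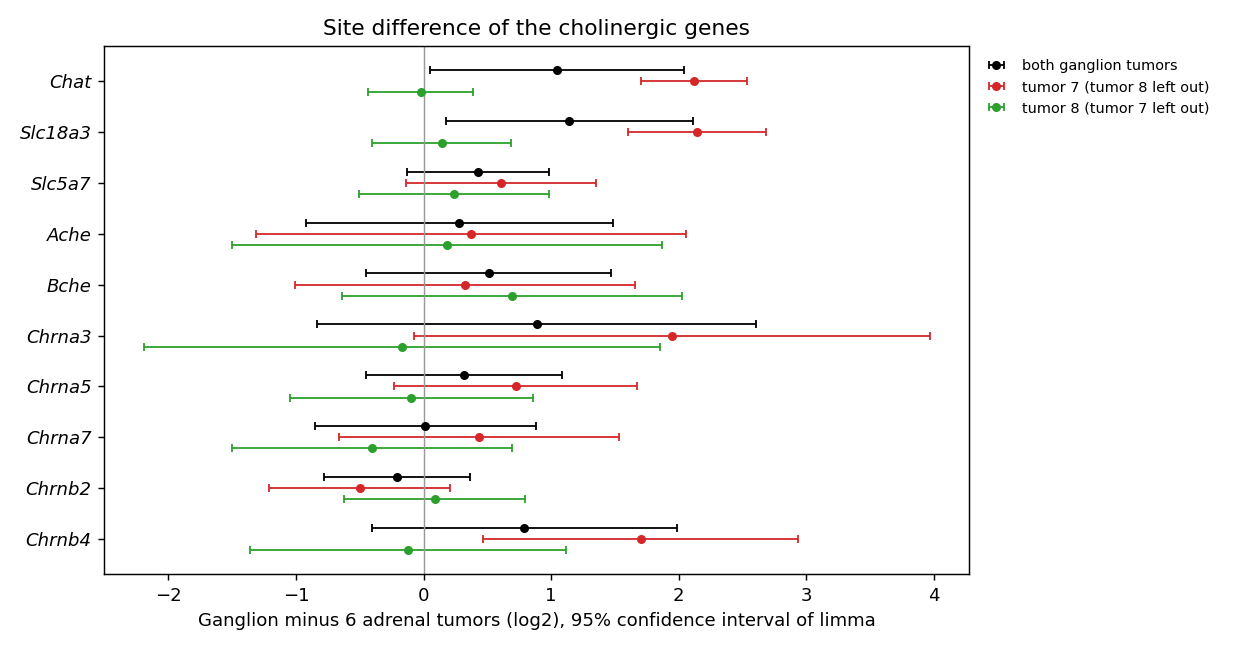
Difference in log2 level between ganglion and adrenal tumors for the 10 cholinergic genes, with 95% confidence intervals of limma, for both ganglion tumors (black), tumor 7 alone (red) and tumor 8 alone (green) against the 6 adrenal tumors. The red intervals of Chat and Slc18a3 (1.70 to 2.53 and 1.60 to 2.68) lie apart from their green ones (-0.44 to 0.39 and -0.40 to 0.68), on deposited values that for these genes are under the detection limit in all tumors but tumor 7.

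Marker genes of cells that could carry cholinergic genes were read beside these results. The noradrenergic genes moved the other way in tumor 7, where Ddc, which makes dopamine, was 7.38 against 13.66 to 14.25, Gata2 7.42 against 12.20 to 13.27 and Gata3 5.22 against 11.12 to 11.80. With tumor 8 left out, 6 of the 9 measured neuroblast genes were called lower, with 3.01% of all genes called lower. The neuroblast list, centred on its mean over the tumors, averaged -2.99 in tumor 7 and 0.18 to 0.64 in the others. Its part in the cholinergic result was not tested.

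**Figure D4:**
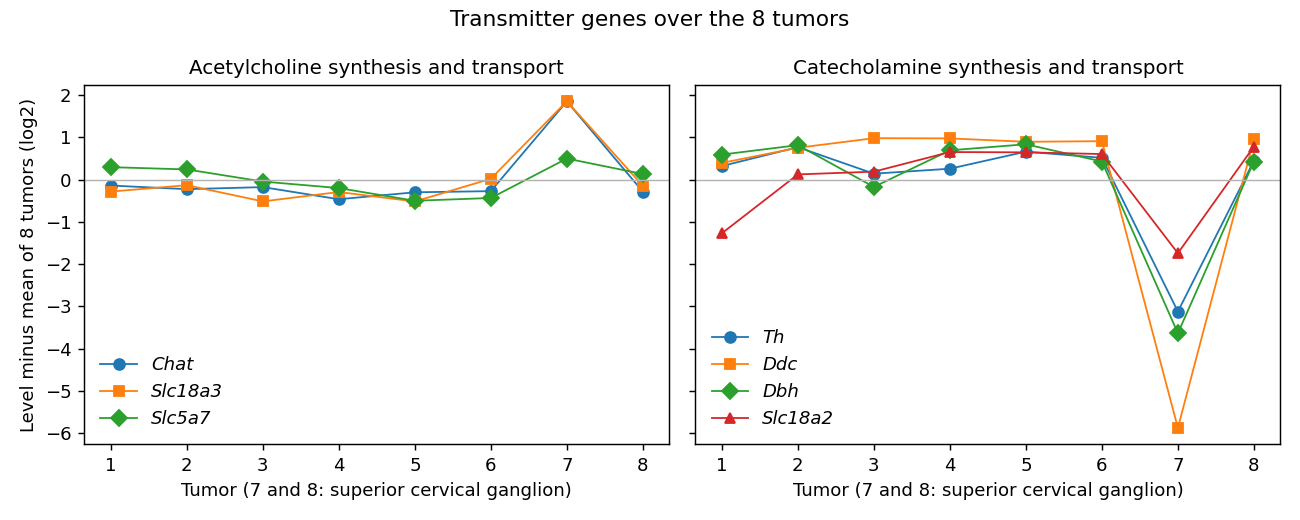
Level minus the mean of the 8 tumors (log2) for Chat, Slc18a3 and Slc5a7 (left) and for the catecholamine genes Th, Ddc, Dbh and Slc18a2 (right) in each tumor; lines join the points of 1 gene to guide the eye. In tumor 7 the left panel has its highest points and the right panel its lowest, with Ddc at 7.38 on the unsubtracted scale against 13.66 to 14.25 elsewhere.

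Of 9 genes tied to the cholinergic switch of sympathetic neurons, 7 were detected in all tumors and Sst in none. Vip, a peptide co-released with acetylcholine, was 11.25 in tumor 7 but 11.81 in tumor 6, and 7.95 to 9.74 in the remaining 6 tumors. None of the 9 genes was highest in tumor 7, with 17.3% of all genes tested highest there. The receptor genes Gfra3, at 7.08 against 11.14 to 12.18, and Lifr, at 10.32 against 11.13 to 11.77, were lowest in tumor 7. They were the 2 of the 9 lowest there, with 26.4% of all genes tested lowest in tumor 7, a share near theirs. This share counts ranks and gives no size of change. With tumor 8 left out, the difference of tumor 7 from the adrenal tumors was -4.56 for Gfra3 and -1.18 for Lifr. For the other genes of the list it was -0.85 to 1.96. Ret stayed between 11.86 and 12.96 in all 8.

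Of 4 transcription factor genes of motor or other cholinergic neurons, Mnx1 and Lhx8 were detected nowhere. Isl2 was detected in all 8, at 7.27 in tumor 7 and 7.04 to 7.60 elsewhere. Lhx3, a transcription factor of motor neurons, reached 8.27 in tumor 7, with 6.13 to 6.49 elsewhere, a difference of 1.94 from the adrenal tumors. Skeletal muscle, which makes Ache and nicotinic subunits of its own, gave 9 marker genes, of which 7 were highest in tumor 7 and 2 in tumor 8. Of all genes tested, 17.3% were highest in tumor 7. Of the 9 muscle genes, 6 were detected in tumor 7, 5 in tumor 8 and 0 to 2 in the adrenal tumors. The muscle list averaged 7.54, 6.89 and 5.66 to 6.05. Acta1 (9.63 in tumor 7, 9.20 in tumor 8) and Tnnt3 (6.23 and 6.02) were called higher in the ganglion over all 8 tumors, with 0.0185% of all genes called. Their limma adjusted p was 0.00401 and 0.0138. Tnnt3 was under the detection limit in every tumor and entered the test only through tumors 7 and 8. Chrna1, the muscle receptor subunit, was 6.21 in tumor 7 and 5.15 to 5.59 elsewhere, under the limit in all. Ache, at 8.05 and 7.86 in tumors 7 and 8, was inside the adrenal range of 6.68 to 8.67. Of 5 measured glial genes, 1 was detected in tumor 7 and 2 to 5 in the others. The part of motor neuron, muscle or glial RNA in the levels of Chat and Slc18a3 was not tested.

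Among 41 further genes of cholinergic signalling, 35 were measured and 31 tested. These cover choline supply, cholinesterase anchors, other receptor subunits, muscarinic receptors, receptor chaperones and endplate genes. The detection limit was passed in every tumor by 13 of the 35 and nowhere by 18. In the site comparison 0 of the 31 were called, with a median difference of -0.035. With tumor 8 left out 2 of the 31 were called, both lower in tumor 7, against 5.87% of all genes, a share near the background. Chrm4, among the 31, was not tested in that fit, as it exceeded log2 5 only in tumors 7 and 8. In tumor 7, 5 of the 35 were at their highest and 10 at their lowest, against 17.3% and 26.4% of all genes tested, again near the background.

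Choline supply was present throughout. The choline kinases Chka and Chkb lay at 9.23 to 9.90 and 9.71 to 10.18, and the choline transporter-like gene Slc44a1 at 9.86 to 10.80. Slc44a2 was 10.14 in tumor 7 against 11.58 to 12.03, a difference of -1.67 from the adrenal tumors (limma adjusted p = 0.00481). Prima1, which anchors acetylcholinesterase in neuronal membranes, was detected in all tumors at 8.88 in tumor 7 and 9.44 to 10.53 elsewhere. The muscle anchor Colq, at 5.73 to 6.18, was detected nowhere.

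Of the measured nicotinic subunits outside the 10, all but Chrnd were detected nowhere, and Chrnd was 6.98 to 7.27, close to the limit. The muscarinic receptor Chrm1 passed the limit in 3 tumors, at 6.51 to 7.02, and Chrm3 and Chrm4 in none. The chaperones Ric3 (7.38 to 8.12) and Tmem35a (8.57 to 10.01), which help Chrna7 receptors assemble, were detected in all 8. Rapsn, which clusters receptors at endplates, was 6.77 in tumor 7 against 7.95 to 8.74 (difference -1.39, limma adjusted p = 0.00953 with tumor 8 left out), while Agrn, the endplate organiser, was 10.67 against 11.48 to 12.31. Ly6h, a Ly6-type protein that binds nicotinic receptors, was 10.41 in tumor 7 against 6.93 to 8.66. Neither Ly6h nor Agrn was called with tumor 8 left out, and Ly6h was named after its values were seen.

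The genes most like the 3 most variable members were found by the root mean square difference of centred log2 levels over the 8 tumors. For Chrna3 these were Tox3 (0.400), Dennd11 (0.424) and Stag3 (0.451). For Chrnb4 they were Palm2 (0.270), Meis2 (0.280) and Rasgrf1 (0.281). For Slc18a3 they were Gadd45g (0.125), Pou3f1 (0.133) and St6galnac4 (0.155). Pou3f1, a transcription factor, lay at 9.44 in tumor 7 and at 7.04 to 7.45 in the other tumors. Slc18a3 was under the detection limit in all tumors but tumor 7, so its neighbours are genes high in tumor 7 and flat elsewhere, and their order carries no more than that.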

How the data were processed

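The authors deposited log2 expression values per probe set; RMA and Partek 6.6 are listed by the submitters' processing notes but gcRMA by the Methods, and which made these values is not settled. Either step corrects background and normalizes across arrays, and RMA-type values understate large changes. No counts exist, so the number of arrays limits the precision. No 2 arrays were identical.

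Symbols came from the platform annotation, updated through Entrez identifiers (34754 probe sets matched a RefSeq gene table of GRCm38.p6). A gene was read from its brightest probe set by mean level, following the Methods, and had to exceed log2 5 in 2 or more tumors to be tested. limma 3.58.1 (R 4.3.3) compared the 2 ganglion with the 6 adrenal tumors (lmFit, eBayes, Benjamini-Hochberg over all genes tested, threshold 0.05). The fit was tested on simulated data. Exact permutation tests and other values used Python 3.11.15, numpy 2.4.6 and pandas 2.3.3, and plots matplotlib 3.10.9. Promoter windows were matched by symbol for 10 of 10 genes, with 2 windows for Chrna5.

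The members and lists were chosen with earlier results of these data known. All 10 members are named, beside the 3 genes most like each of the 3 most variable members. From the other lists, genes could be named if called or if at least 2 above the next tumor in 1 tumor. The most variable among those detected in all tumors, and the highest on average, could be named too. Not every gene that met these rules is named in the results, such as Alb and Serpina1c, both highest in tumor 6. Other names in the lists, such as Ddc, Gata2, Gata3, Lhx3, Colq and Chrm1, were picked with their values in view. The alternatives changed the detection limit, the test, the low-value filter, the choice of probe set or the normalization, or left out tumors. Protein sequences were not used here.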

Additional observations from a re-analysis of the deposited data

Results flagged for a closer look

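In the levels over the 8 tumors, tumor 7 was far from the others for both genes of the cholinergic locus. For Chat the gap between tumor 7 and the next tumor took 0.86 of the whole range, and for Slc18a3 0.774, both above the critical share of 0.526 for 8 tumors. These were 2 of 20 such comparisons, the 10 genes over all 8 tumors and over the 6 adrenal tumors. Both genes were under the detection limit in the other 7 tumors, so these shares set a detected value against a spread of background values and give no size of change. Chance gives about 1 in 20 groups, but the 2 that passed are overlapping genes read in the same tumor and not separate results. How many of all genes pass in tumor 7 was not counted, and 2.05% of all genes had a gap of at least 1 there. Among the 6 adrenal tumors, with a critical share of 0.625, no gene had such a gap. In the same tumor Th, Dbh and Ddc were at their lowest and Lhx3, Pou3f1 and Ly6h at their highest.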

How the results depend on the processing

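Of 156 differences between sites computed for single genes under the alternatives, 139 kept their direction and their side of the threshold, 15 turned direction and 2 passed the threshold. No paired analysis was possible because the sources used here do not say which mouse each tumor came from. The count of all genes called was 3 in the report, 1 with the receptor-based filter, 6 with the mean of probe sets, 5 with every probe set on its own, 9 without tumors 6 and 7, and 2 to 951 with 1 tumor left out (8 without tumor 7, 951 without tumor 8). The 10 genes had 0 called, and 0 to 2 with 1 tumor left out, the 2 being Chat and Slc18a3 without tumor 8. Of the 10 genes, 3 were detected in all tumors, 8 with a limit of log2 5 and 1 with the mean of probe sets (Chrna7). In the wider list the number was 13, and 27 with a limit of log2 5. The difference turned for Chrna7 to -0.093, -0.058, -0.016 and -0.406 without tumors 2, 5, 6 and 7 in turn. Without tumor 7 it was -0.022 for Chat, -0.173 for Chrna3, -0.096 for Chrna5, 0.086 for Chrnb2 and -0.122 for Chrnb4. Without tumors 6 and 7 it was -0.024 for Chat, -0.115 for Chrna3, -0.186 for Chrna5, -0.434 for Chrna7, 0.065 for Chrnb2 and -0.174 for Chrnb4. With 1 tumor left out in turn, the difference was -0.022 to 2.118 for Chat, 0.141 to 2.143 for Slc18a3, 0.241 to 0.606 for Slc5a7, 0.078 to 0.477 for Ache, 0.324 to 0.697 for Bche, -0.173 to 1.944 for Chrna3, -0.096 to 0.721 for Chrna5, -0.406 to 0.432 for Chrna7, -0.502 to 0.086 for Chrnb2 and -0.122 to 1.702 for Chrnb4, the highest being without tumor 8 for Chat, Slc18a3, Chrna3 and Chrnb4. The turns without tumor 7 follow from leaving out its values, and the cause of the others was not tested. Under the receptor-based filter Chat, Slc18a3, Slc5a7 and Chrna5 were not tested. With 2 ganglion tumors and dim probe sets, differences near the detection limit are poorly measured.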

Other observations

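The remaining marker lists were uneven across tumors. Of 7 adrenal cortex genes, 6 were highest in tumor 6, among them the steroid enzyme gene Hsd3b1 at 9.41 against 5.04 to 6.52. Of 6 salivary genes, 2 were detected in all tumors, and Pip, a secreted gland protein, was 12.79 in tumor 8 against 4.61 to 5.04. Of 6 macrophage genes, 5 were detected in all tumors, such as Lyz2 at 11.65 to 12.90. Of 4 measured erythroid genes, Alas2 passed the limit in 3 tumors and the other 3 in none.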
